A study of Homo sapiens with 2 samples.

Results

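The genes described here are 228 symbols that the authors' table of RNA-binding protein families named and that no entry of their GO or KEGG tables contained. They were selected on being named or not named in lists that come from these data, out of the 1348 symbols of the family table and 5851 symbols named in any table, so their absence from the annotation tables is a description and no result. Of 237 symbols absent from both annotation tables, 9 were left out by name, namely 8 antisense transcripts and ZNF385C. These 9 count among the 1120 other symbols of the family table in the comparisons below. The study worked with HL-60, a line grown from a human promyelocytic leukaemia, and sequenced RNA bound by ALKBH5, the enzyme that takes the methyl mark N6-methyladenosine off RNA. The design text describes an input of 10% of the cell lysate, an ALKBH5 immunoprecipitation from 80%, and a rabbit IgG control from the last 10%, which was not analysed here. The labels hold 2 libraries of the same cells, both with the genotype entry ALKBH5 and with no treatment named. Their titles and library names disagree on which is the input and which the immunoprecipitate, so neither was assigned to a group.

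The tables give no level for a gene and no value for a library, so depth is unknown and a gene can only be described as named, and by the families it was paired with. The sources used here do not say how a symbol came to be paired with a family. Of 10 marker genes of promyelocytes and neutrophils, 6 were in the annotation tables, with MPO and CD33 among them and ELANE, AZU1, CTSG and CEBPE absent. Only ITGAM of the 10 was in the family table at all. It was also in the annotation tables, so none of the 10 could be named only in the family table. Of 10 genes listed as markers of other cells, 4 were in the annotation tables: CD4, EPCAM, KRT8 and PECAM1. Expression of CD4 or PECAM1 in myeloid cells themselves was not examined, so these names are no sign of other cell types. For scale, the annotation tables named 5614 symbols, and RefSeq holds 20056 protein-coding genes. The difference between the marker counts was not tested.

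RNA-binding proteins recognise RNA through a small number of domain types. The RNA recognition motif (RRM) is the most common of them in animals and occurs in splicing factors and in proteins that control the stability of mRNA. The cold shock domain (CSD) occurs in YBX1 and the LIN28 proteins, and the PUF repeat in the Pumilio proteins, which repress mRNAs. The combined family, written CCHC ZF,RRM in the table, joins a small zinc knuckle to an RRM, as in SRSF7 and RBM4.

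The 228 symbols fell into 5 pairing patterns. All 228 were paired with RRM and 227 with CSD, as were 1120 and 1115 of the other 1120 symbols. PUF was paired with 192 of the 228 (84.2%, exact Clopper-Pearson 95% interval 78.8 to 88.7%) and with 88.5% of the others (86.5 to 90.3%), so these intervals overlap. The combined CCHC and RRM family was paired with 133 (58.3%, 51.6 to 64.8%), against 67.9% of the others (65.0 to 70.6%), and here they do not. With protein-coding genes alone these intervals overlap, at 61.3% (53.9 to 68.3%) and 68.2% (65.2 to 71.0%). The intervals cover counting error only, and no test was made of the differences.

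All 4 families were paired with 125 of the 228 symbols (54.8%, 48.1 to 61.4%) and with 713 of the others (63.7%, 60.8 to 66.5%). A further 66 lacked only the combined family (28.9%, 23.1 to 35.3%, against 24.7% of the others). RRM and CSD without either remaining family were paired with 28 symbols (12.3%, 8.32 to 17.3%), against 7.05% of the others (5.62 to 8.71%). Where the families were fewer, the combined family was usually among those missing. It was paired with 125 of the 192 symbols that had PUF (65.1%) and with 8 of the 36 that did not (22.2%). The same order held among the other symbols, at 71.9% and 36.4%.

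**Figure D1:**
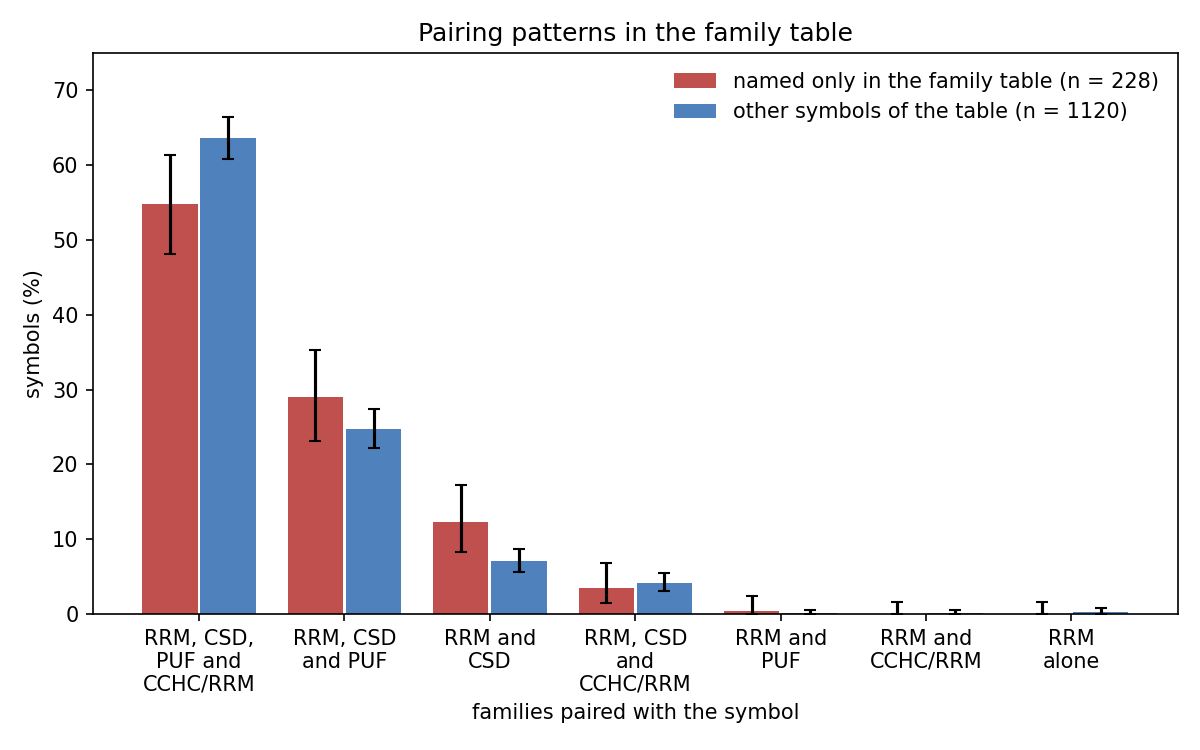
Share of symbols (%) with each set of paired families, for the 228 symbols named only in the family table (red) and the 1120 other symbols of that table (blue). Bars are shares and whiskers exact 95% intervals; the full set of families is the tallest pair, at 54.8% and 63.7%, and RRM with CSD stands at 12.3% and 7.05%.

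The rarest patterns held few genes. SLC9A8, a sodium and proton exchanger of internal membranes on chromosome 20 from 49812828 to 49892242 (GRCh38.p14), was paired with RRM and PUF and was the only one of the 228 without CSD. CSD was missing for 6 symbols of the whole table. The other 5 were CHKB, SAMD1, SETDB2 and the clone-named RP11-307N16.6 and CTD-3149D2.4, and SETDB2 had the same RRM and PUF pair. The 8 symbols that had the combined family without PUF were CLEC10A, a lectin of macrophages and dendritic cells, the membrane-type metalloprotease MMP17, the organic anion transporter SLCO4A1, LRRC56, MBLAC1, MESDC1, AC004623.3 and RP11-35G9.5. No symbol of the 228 was paired with RRM alone, a pattern that 3 of the other symbols had.

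The rule separates symbols in no listed term from symbols in at least 1, and the pairings of symbols just past it are given for reference. Of 161 symbols in a single GO or KEGG term, 68.9% had all 4 families (61.2 to 76.0%). The share was 58.1% of 301 symbols in 2 or 3 terms, 63.3% of 316 in 4 to 6 terms and 66.7% of 333 in 7 or more. The shares therefore did not climb steadily with the number of terms, and the 54.8% of symbols in no term was the lowest of these values. Its interval (48.1 to 61.4%) reaches into that of each of these groups, the last of which is 61.3 to 71.7%.

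A list of 99 genes was picked by hand as PUF, CSD, CCHC with RRM and RRM proteins. Only 10 of the 99 were in the family table, so at most 10 could be among the 228. All 10 were also in GO or KEGG, as were 1111 of the 1348 symbols of the family table, so none was among the 228. These were CARHSP1, a cold shock domain protein, and CELF1, CELF6, ELAVL1, HNRNPL, PABPN1, PTBP2, RBM6, RBM19 and SRSF6, which carry RRMs. CARHSP1 itself was paired with RRM and CSD, and RBM19 with RRM, CSD and PUF. The other 8 were paired with all families, including PUF and the combined family, so a pairing need not be the family of the encoded protein. Of the 4 PUF genes of the list, 0 were in the family table and 2 in GO or KEGG.

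By biotype, 186 of the 228 were protein-coding genes of RefSeq (81.6%, 75.9 to 86.4%), against 93.4% of the other symbols (91.8 to 94.8%). A further 39 had no match in RefSeq (17.1%, 12.5 to 22.6%, against 4.91%, 3.72 to 6.34%), so their biotype and position are unknown. Long noncoding RNAs of RefSeq were 0 of the 228 (up to 1.60%) and 19 of the others (1.70%, 1.02 to 2.64%). The rule left antisense names out of the 228, and those left out count among the others. Of the 1111 others also in GO or KEGG, 11 were long noncoding (0.990%, 0.495 to 1.76%). Both intervals overlap that of the 228. The remaining 3 of the 228 were pseudogenes of small noncoding RNAs. RN7SKP50 derives from 7SK, which holds back the elongation factor of RNA polymerase II, and RN7SL182P and RN7SL800P derive from 7SL, the RNA of the signal recognition particle. They spanned 0.315, 0.300 and 0.280 kb. RN7SL182P was paired with RRM and CSD and the other 2 with all families. Reads of such copies can be split between near-identical loci, so which copy was meant is uncertain. RN7SL182P lies within the span of QRICH1 and RN7SL800P within that of MED13, both named in GO or KEGG.

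Of the 39 symbols without a match, 38 were clone names in the style of older annotations, 21 of them from RP11 clones and 8 from CTD clones, and 1 was CRIPAK. All families were paired with 15 of the 39 (38.5%, 23.4 to 55.4%) and with 32 of the 55 unmatched symbols among the others (58.2%, 44.1 to 71.3%). A pair of clones each gave 2 of the symbols. Both RP3-508I15.14 and RP3-508I15.21 were paired with RRM and CSD. RP11-574K11.24 and RP11-574K11.32 shared their clone name with RP11-574K11.31, which stood in GO or KEGG. In all, 9 of the 38 clone-named symbols had such a partner.

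Membrane carriers took a larger share of these symbols than of the rest of the family table. Symbols that start with SLC, the solute carriers, made up 12 of the 228 (5.26%, 2.75 to 9.01%) and 8 of the other 1120 (0.714%, 0.309 to 1.40%), with intervals that do not overlap. With potassium channels and pumps included, the class of transport names held 15 (6.58%, 3.73 to 10.6%) against 22 (1.96%, 1.24 to 2.96%). Names given from sequence alone, such as CCDC, FAM, TMEM and open reading frame names, held 17 (7.46%, 4.403 to 11.7%) against 25 (2.23%, 1.45 to 3.28%). They included C16orf54, C1orf112, C20orf194, C21orf58, CCDC127, CCDC154, CCDC157 and CCDC180. Names starting with RNF, TRIM, USP, FBX, UBE, UBR or HERC, which many ubiquitin enzymes and F-box proteins carry, were absent from the 228 (0%, up to 1.60%), where the others had 34 (3.04%, 2.11 to 4.22%). By the rule, no symbol of a listed term could be among the 228. How many listed terms name ubiquitin was not counted, so this 0% is a description only. The deubiquitinases BAP1 and OTUD1 were among the 228 under other names. Repeat and scaffold names such as ANKRD and LRRC were alike in share, at 3.51% and 3.21%. For the remaining classes the intervals overlap: small GTPase regulators had 2 (PLEKHG3 and PLEKHG5) against 23, zinc finger names other than ZNF 2 (ZCCHC14 and ZMYM1) against 7, and RNA-binding names 0 against 7. Names of pseudogenes and noncoding RNAs other than antisense transcripts were 3, the 7SK and 7SL copies, against 1. Of the 349 listed terms through which a symbol could enter the annotation tables, 0 had extracellular, transmembrane, channel or collagen in their names, 9 had membrane, 8 transport and 3 plasma membrane, and 42 had RNA and 25 DNA; the part of this in the class shares was not tested.

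**Figure D2:**
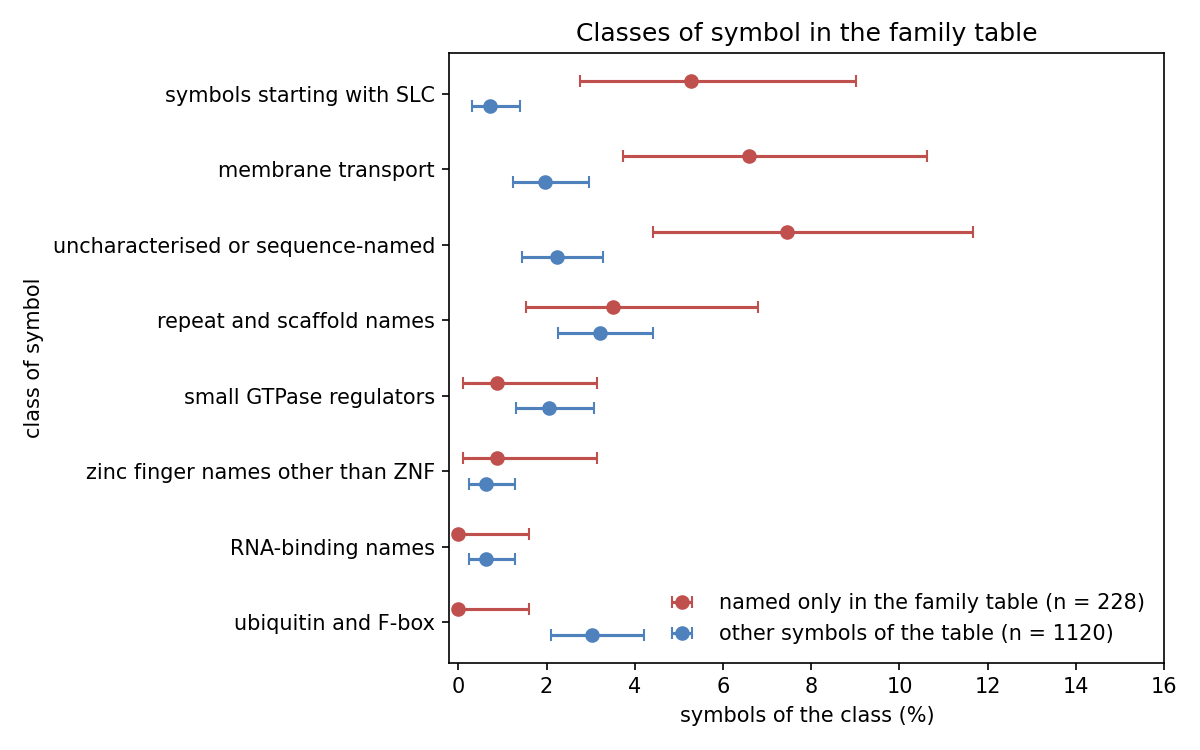
Share of symbols (%) in each class of symbol, with exact 95% intervals, for the 228 symbols named only in the family table (red) and the 1120 others (blue). Solute carriers stand at 5.26% against 0.714%, and ubiquitin and F-box names at 0% against 3.04%. By the rule, no symbol of a listed GO or KEGG term could be among the 228.

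Functions were assigned to 109 of the 228 after the names were seen, from textbook knowledge, and the other 119 were left ungrouped. The groups are small, and differences between them were not tested. The grouped symbols were paired with all families in 65 cases and the ungrouped in 60. Over all 228 the share was 54.8%, the value to set beside the count of each group. The 14 carriers moved several kinds of solute. SLC19A1 carries reduced folates and SLC29A4 monoamines, and both were paired with RRM and CSD alone, as was MFSD4B. The taurine carrier SLC6A6, the amino acid carriers SLC43A2 and SLC38A10, SLC12A9, SLC35E2B and MFSD10 had all families. The monocarboxylate carrier SLC16A7, the glutamine carrier SLC38A5 and the zinc carrier SLC39A9 lacked only the combined family. All families were therefore paired with 6 of the 14. Among 7 channel genes, the potassium channel KCND1, the chloride channel CLCN2, the sperm calcium channel subunit CATSPER2 and TTYH3 had all families. The potassium channel genes KCNK5 and KCNV2 had RRM and CSD.

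Of the 349 listed terms, 1 had immune in its name and 0 had complement. Immune genes among the 1120 other symbols were not counted. Among the 228, a group of 13 immune genes was picked by hand. They included the scavenger receptor CD163 of macrophages, the receptors LILRA5, PILRB and SLAMF8, the chemokine receptor CCR10, the G protein-coupled receptors GPR35 and P2RY11, and CECR1, now ADA2, a secreted adenosine deaminase of myeloid cells. AOAH, which deacylates bacterial lipopolysaccharide, and the complement components C1S and C4A were also in it. All families were paired with 6 of them: AOAH, C1S, C4A, CECR1, LILRA5 and PILRB. GPR35, P2RY11 and SLAMF8 had RRM and CSD, and CARD6, CCR10 and CD163 lacked the combined family. These genes were short, with a median span of 10.6 kb and a range from 2.96 kb for CCR10 to 212 kb for AOAH. C4A has a near-identical copy, C4B, so its naming is uncertain.

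A group of 14 encodes matrix proteins, metalloproteases and secreted inhibitors. The collagens COL4A2, COL7A1 and COL17A1, the collagen-like tail COLQ of acetylcholinesterase and SCUBE1 were paired with all families. ADAM11, ADAM23, the protease ADAMTS7, EMILIN1, SPARCL1 and TFPI, the inhibitor that limits the start of coagulation, lacked only the combined family. DKK3, of the Dickkopf family, and TINAGL1 had RRM and CSD. Of 11 adhesion and surface receptors, 8 had all families, among them the WNT co-receptor LRP5, the Dickkopf receptor KREMEN2, the Hedgehog co-receptor CDON and the laminin receptor subunit ITGA7. ADGRL1, a latrophilin receptor, had RRM and CSD. The 8 glycosylation enzymes were all paired with PUF, as were 84.2% of the 228 symbols. All families were paired with 4 of the 8, and with 54.8% of the 228. XYLT1 and XYLT2, which start the glycosaminoglycan chains of proteoglycans, differed in this: XYLT2 had all families and XYLT1 lacked the combined one.

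Genes grouped as nuclear or as trafficking were mostly paired with every family, as were 125 of the 228 symbols (54.8%). Of 9 nuclear regulators and DNA repair genes, 8 had all families: the aryl hydrocarbon receptor repressor AHRR, the RNA polymerase III factor BRF1, EBF3, RAI1, the telomerase-associated TEP1, SLX4IP, C1orf112, now FIRRM, and ZSWIM8, an adaptor in the decay of microRNAs directed by their targets. BAP1, the deubiquitinase of histone H2A, lacked the combined family and was the shortest of the 9. Of 11 trafficking, GTPase and cytoskeletal regulators, 9 had all families. They included SCAP, which escorts the sterol regulator SREBP, the Rab regulator MADD and the lipid transfer proteins VPS13B and VPS13D. Of 10 metabolic and mitochondrial genes, 4 had all families. NDUFB2 and NDUFS7, subunits of respiratory complex I, lacked the combined family, and PPOX, of heme synthesis, had RRM and CSD. The nuclear group had a median span of 106 kb and the metabolic group one of 12.3 kb. Among all the protein-coding genes of the 228, 33 of 41 above 103 kb had all families (80.5%). Of those up to 19.5 kb, 21 of 57 had them (36.8%). The part of length in the group counts was not tested.

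The 8 genes grouped as duplicated families were ANKRD36, ANKRD36B, ANKRD36C, GOLGA8B, LRRC37A3, NPIPB3, NPIPB5 and NUTM2D. All families were paired with 7 of them and NUTM2D lacked the combined one. These genes have near-identical copies, and the sources used here do not say how the authors treated reads that match several copies. NPIPB3 carries an identifier that the annotation tables hold under the symbol NPIPB4, and the identifiers of NDUFS7 and PCSK7 stood there under AC005329.7 and AP000892.6. These 3 were the cases in which a matched gene was present in GO or KEGG by identifier and not by symbol. The 4 cilium and sperm genes, ACRV1, C20orf194, HYDIN and RSPH10B2, all had all families, as did 54.8% of the 228 symbols.

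Genomic length, introns included, went with pairing among these genes. The 186 protein-coding genes had a median span of 40.3 kb (quartiles 13.2 and 89.3 kb), close to the 42.3 kb (20.5 and 105 kb) of the 1046 other protein-coding genes of the table and above the 24.1 kb of all 20056 protein-coding genes of RefSeq. By pattern, the median was 59.9 kb for the 108 with all families, 24.4 kb for the 50 that lacked only the combined family and 15.8 kb for the 21 with RRM and CSD. The same patterns among the other genes had 45.0, 39.7 and 39.8 kb. The longest were VPS13B at 864 kb, the ciliary HYDIN at 429 kb, XYLT1 at 369 kb, PCNX2 at 344 kb and CNTNAP4 at 283 kb, all with the full set except XYLT1. The shortest were MBLAC1 (1.53 kb), PRR22 (1.79 kb), SAPCD1 (2.20 kb), CCR10 (2.96 kb) and the deubiquitinase OTUD1 (3.30 kb), and of these only SAPCD1 had the full set.

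**Figure D3:**
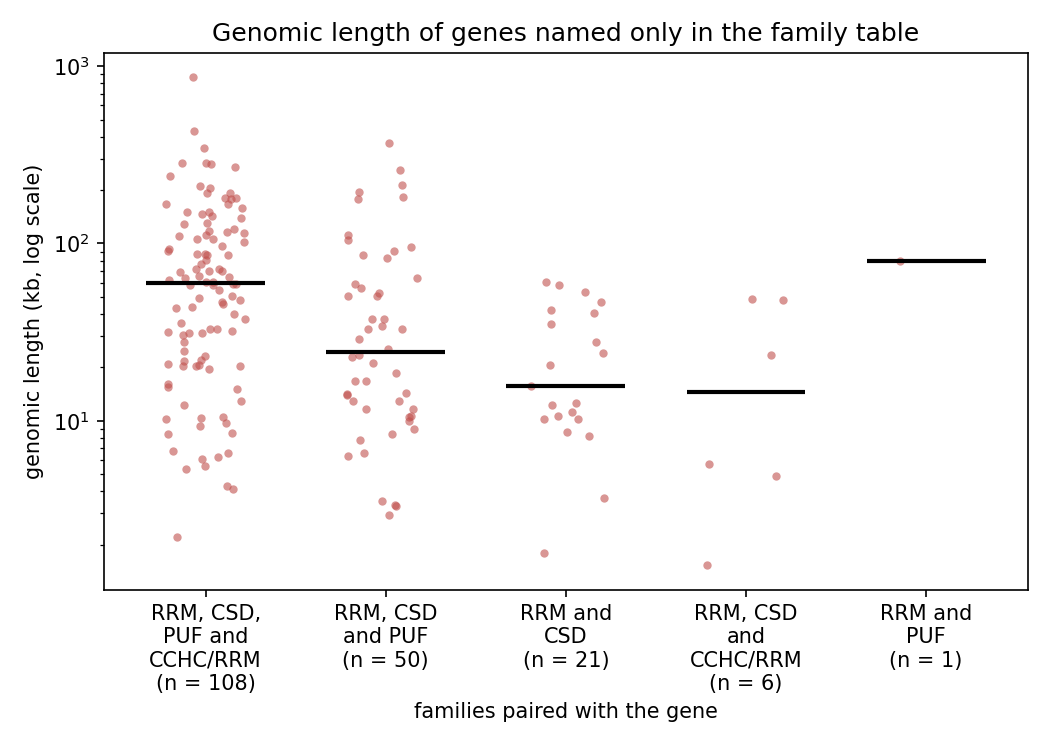
Genomic length in kb, on a log scale, of the 186 protein-coding genes named only in the family table, by the families paired with them. Each point is a gene and each black line a median; the medians are 59.9 kb with all families, 24.4 kb without the combined family and 15.8 kb with RRM and CSD.

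Within 4 length classes, which hold equal numbers of the protein-coding genes of the family table, the difference from the other symbols changed sign. Among genes up to 19.5 kb, 21 of 57 had all families (36.8%, 24.4 to 50.7%), against 59.0% of 251 others (52.6 to 65.1%), and these intervals do not overlap. In the next classes the values were 56.8% against 64.6% and 64.7% against 67.7%. Above 103 kb, 33 of 41 had all families (80.5%, 65.1 to 91.2%), against 65.9% of 267 others (59.9 to 71.6%), and the intervals overlap. PUF was paired with all 41 of these long genes and with 43 of the 57 short ones (75.4%, 62.2 to 85.9%). The other symbols had 89.5% (85.2 to 92.9%) and 84.1% (78.9 to 88.4%) in the same classes, and for both classes the intervals overlap. The length classes were chosen after seeing the data, and the change of the difference with length was not tested.

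**Figure D4:**
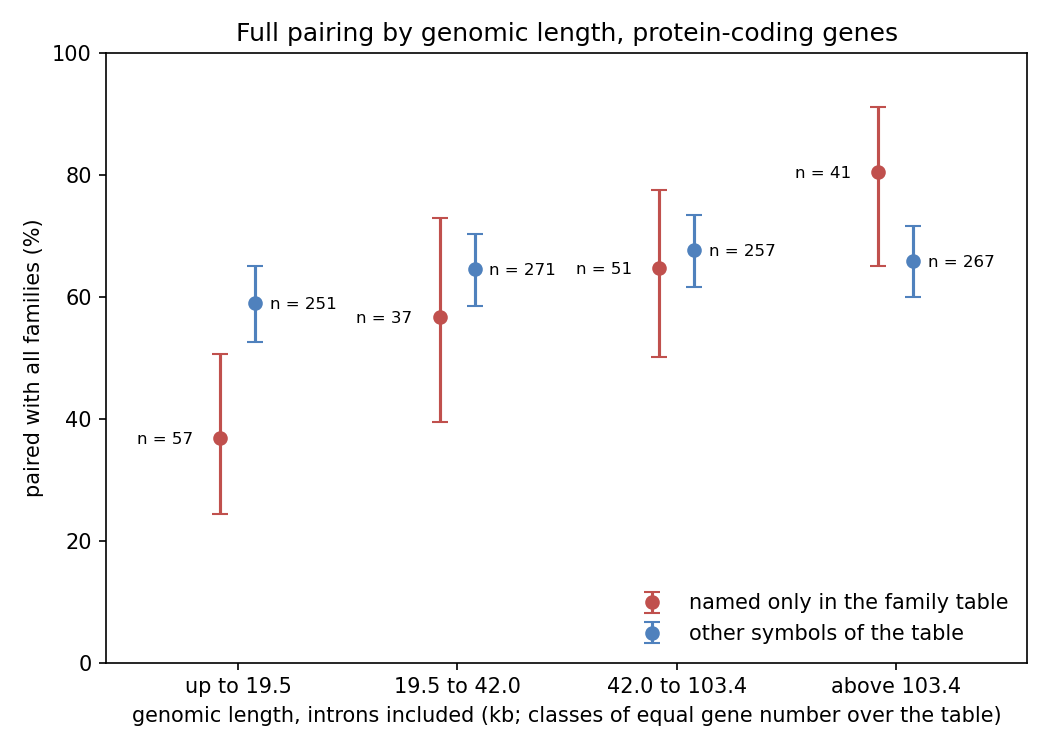
Share of protein-coding genes paired with all families (%) in each of 4 classes of genomic length (kb), for genes named only in the family table (red) and the others (blue), with exact 95% intervals and the number of genes beside each point. The red points run from 36.8% to 80.5% and the blue ones from 59.0% to 67.7%.

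On the genome, 26 of the 189 matched symbols overlapped a gene named in GO or KEGG (13.8%, 9.19 to 19.5%), close to 12.5% of 1065 other symbols of the table (10.6 to 14.6%). The partner was known to lie on the opposite strand for 17 of them (8.99%) and on the same strand for 2 (1.06%), and for 7 a strand was not in the table used. On the opposite strand, ACRV1, an acrosomal protein, lay wholly inside the span of the checkpoint kinase CHEK1, BRF1 shared 14816 bases with PACS2, EPHX1 5008 with TMEM63A and SLC19A1 11204 with COL18A1. LRRC56 overlapped both HRAS and RNH1, and CBARP overlapped STK11 by 145 bases. The same-strand cases were P2RY11 with PPAN and SAPCD1 with MSH5 and the readthrough gene MSH5-SAPCD1. Among the 228 themselves, CORO7 overlapped the readthrough CORO7-PAM16 and SLC29A4 overlapped TNRC18. The sources used here do not say whether the authors assigned peaks by strand, so a peak in a shared stretch cannot be given to one gene.

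Start windows, the 250 bases before and 50 after a start given by the RefSeq window table (GRCh38.p14), were at hand for 143 of the 186 protein-coding genes. In 28 of the 143 (19.6%) that start lay inside the gene's RefSeq span and not at its end, as it did for 14.0% of 877 other protein-coding genes of the table. In 9 of the 143 (6.29%, 2.92 to 11.6%) the window overlapped that of a GO or KEGG gene on the other strand, against 4.675% of those 877 genes (3.38 to 6.29%). Such pairs show how close a symbol absent from the annotation tables can lie to one that is in them. The 3 with the longest shared stretch are shown, 5′ to 3′ on the strand of the first gene, with the shared stretch in capitals. CCDC127 (chr5:218104-218403, minus strand) shares 266 bases with SDHA, a subunit of succinate dehydrogenase. C1orf112 (chr1:169794790-169795089, plus strand) shares 232 with METTL18, a histidine methyltransferase. METTL18 lies wholly inside the RefSeq span of C1orf112 (169783837 to 169854080), and the start shown is 11203 bases within that span. ANKRD24 (chr19:4182439-4182738, plus strand) shares 225 with SIRT6, a sirtuin deacetylase.
CCDC127: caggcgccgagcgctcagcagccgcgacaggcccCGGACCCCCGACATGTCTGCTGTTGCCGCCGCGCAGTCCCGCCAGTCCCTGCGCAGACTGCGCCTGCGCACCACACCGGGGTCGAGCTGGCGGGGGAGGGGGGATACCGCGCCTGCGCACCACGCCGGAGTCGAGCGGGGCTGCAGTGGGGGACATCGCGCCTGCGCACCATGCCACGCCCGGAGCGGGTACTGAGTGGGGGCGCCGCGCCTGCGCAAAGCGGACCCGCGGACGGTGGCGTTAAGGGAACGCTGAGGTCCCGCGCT
C1orf112: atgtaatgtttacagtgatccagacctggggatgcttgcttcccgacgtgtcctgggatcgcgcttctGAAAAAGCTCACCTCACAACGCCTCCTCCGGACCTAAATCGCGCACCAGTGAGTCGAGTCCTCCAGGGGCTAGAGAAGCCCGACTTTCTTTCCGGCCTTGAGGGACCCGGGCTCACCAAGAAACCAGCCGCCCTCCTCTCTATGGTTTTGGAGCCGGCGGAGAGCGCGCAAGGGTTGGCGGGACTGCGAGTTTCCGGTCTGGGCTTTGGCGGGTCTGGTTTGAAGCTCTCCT
ANKRD24: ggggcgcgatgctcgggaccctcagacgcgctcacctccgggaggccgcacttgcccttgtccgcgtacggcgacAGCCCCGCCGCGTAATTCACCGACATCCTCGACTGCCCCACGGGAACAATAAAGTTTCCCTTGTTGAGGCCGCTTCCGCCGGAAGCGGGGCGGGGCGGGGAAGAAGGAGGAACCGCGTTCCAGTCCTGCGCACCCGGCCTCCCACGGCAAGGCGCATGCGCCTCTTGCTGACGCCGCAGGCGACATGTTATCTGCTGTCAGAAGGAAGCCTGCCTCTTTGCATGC
ANKRD24 was paired with RRM and CSD, CCDC127 also with PUF, and C1orf112 with all families. The remaining pairs were CLCN2 with POLR2H, MORN1 with RER1, MST1 with RNF123, RBP5 with CLSTN3, SLC39A9 with ERH and SMYD4 with RPA1.

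The windows differed in CpG content. CpG dinucleotides are rare in most of the genome and dense in the start regions of widely used genes. The ratio of observed to expected CpG, expected from the numbers of C and G, was above 0.6 in 100 of the 143 windows (69.9%, 61.7 to 77.3%), in 82.9% of 877 windows of other protein-coding genes of the table (80.2 to 85.3%) and in 65.7% of all 15843 protein-coding windows. The first interval lies below the second. The median ratio was 0.822, 0.846 and 0.763, and the median GC content 64.0%, 66.7% and 62.7%. By pattern the share above 0.6 was 72.3% of 83 windows with all families, 69.2% of 39 that lacked the combined family and 55.6% of 18 with RRM and CSD (30.8 to 78.5%), and these intervals overlap. Both ends of the range are shown with each CG in capitals. LDLRAD2 (chr1:21812015-21812314, plus strand), a receptor-domain protein, had a ratio of 0.043 and TMEM248 (chr7:66920975-66921274, plus strand), a membrane protein, one of 1.25.
LDLRAD2: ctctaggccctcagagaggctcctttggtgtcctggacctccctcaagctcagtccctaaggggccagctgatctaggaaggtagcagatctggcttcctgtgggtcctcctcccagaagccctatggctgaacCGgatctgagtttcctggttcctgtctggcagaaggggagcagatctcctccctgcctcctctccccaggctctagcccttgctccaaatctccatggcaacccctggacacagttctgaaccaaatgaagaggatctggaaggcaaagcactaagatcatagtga
TMEM248: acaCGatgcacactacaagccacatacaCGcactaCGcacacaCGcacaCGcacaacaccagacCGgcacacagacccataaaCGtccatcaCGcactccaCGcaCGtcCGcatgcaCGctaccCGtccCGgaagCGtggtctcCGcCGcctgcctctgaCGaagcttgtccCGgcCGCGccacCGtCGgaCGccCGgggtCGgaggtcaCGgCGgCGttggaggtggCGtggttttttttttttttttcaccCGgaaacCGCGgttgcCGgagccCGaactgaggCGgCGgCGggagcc
LDLRAD2 has 1 CG in its 300 bases and TMEM248 has 38. The motif TATAAA, searched on the gene's strand anywhere in the window, was in 7 of the 143 (4.90%, 1.99 to 9.83%), in 2.96% of the other genes' windows (1.95 to 4.31%) and in 6.91% of all protein-coding windows. The 7 were C21orf58, CCDC157, COL17A1, CPXM1, NPIPB3, SPARCL1 and VPS13D.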

How the data were processed

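The authors deposited 3 text tables of the whole series; per the submitters' processing notes the build was hg38, and the sources used here name no aligner, peak caller or way of pairing symbols with families. Per the file headers, 2 tables list, for 311 GO terms and 38 KEGG pathways, entries of a gene identifier with a symbol, and the third pairs symbols with families in 4766 pairs, without a number. No level, count or p-value per gene was in them, so no test was made. Members were found by exact symbol and the lists were chosen with earlier results of these data known. Symbols were matched to RefSeq genes of GRCh38.p14 by symbol (177 of 228), then by an unambiguous older symbol (12). Strand and start windows came from the RefSeq window table. Shares carry exact Clopper-Pearson 95% intervals (scipy 1.17.1), and figures were drawn with matplotlib 3.10.9. Genes named are those of rare patterns, the longest and shortest, those overlapping annotated genes and, in alphabetical order, up to 8 of each class of symbol; functional groups and the genes named with them, the start windows and the symbols lacking CSD were chosen after the data were seen. The 7SK pseudogene was added to the noncoding class by hand. With neither library assigned to a group, no comparison between libraries was made.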

Additional observations from a re-analysis of the deposited data

How the results depend on the processing

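The number of symbols, 228, became 227 with older symbols looked up too and 236 with GO alone. It was 237 with ZNF and antisense names kept, and 228 without ZBTB, ZFP, ZKSCAN and ZSCAN names. The symbol lost in the 227 was LRPAP1, through its alias MRAP, which is an entry. The identifier of LRPAP1 is in no entry, so the MRAP entry carries that of another gene and the loss is one of name only. Searching KEGG alone gave 1066, because fewer symbols stand in that table. The share with all families (54.8%) was 58.1% in protein-coding genes and 58.2% without unmatched symbols. It was 53.5% without the 8 genes grouped as duplicated families and the 7SK and 7SL copies. That setting kept C4A, which has the near-identical copy C4B, and other genes outside the group were not screened for copies. In the length classes, from short to long, the share with all families was 36.8, 56.8, 64.7 and 80.5%. The share overlapping an annotated gene (13.8%) fell to 8.99% on the opposite strand and 1.06% on the same strand, by construction. For the other symbols of the family table, the share with all families was 63.7% (60.8 to 66.5%). It left that interval in length classes 1 and 3 (59.0 and 67.7%) and in single-term symbols (68.9%). In length classes 2 and 4 it stayed inside (64.6 and 65.9%). The remaining shares, biotypes and the median length (43.0 kb by symbols as written) stayed within their intervals or within 1.5 times. Length classes, unmatched symbols, duplicated families and single-term symbols were alternatives chosen after seeing the data. No paired analysis was possible because the tables hold no value per library. The depth behind a named gene is unknown, and a symbol absent from the tables may still have been bound.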
